A study of Mus musculus with 12 samples.

Results

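The genes described are the mouse replication-dependent histone genes, taken as the symbols that begin with Hist1h, Hist2h, Hist3h or Hist4h. The table of 23479 genes held 68 such symbols, and 57 of them were kept because 3 or more of the 12 libraries had a value of 10 or above. The 57 comprised 5 linker histone H1 genes, 13 H2A, 15 H2B, 12 H3 and 12 H4 genes. By position, 46 lay in the Hist1 cluster on chromosome 13, 8 in the Hist2 cluster on chromosome 3, 2 at Hist3 on chromosome 11 and 1, Hist4h4, on chromosome 6. One of the 57, Hist3h2bb-ps, is annotated as a transcribed pseudogene.

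Replication-dependent histone genes supply the H2A, H2B, H3 and H4 proteins of the nucleosome core, and the H1 proteins that bind the DNA between nucleosomes, when DNA is copied in S phase. They are short, lie in clusters, mostly lack introns, and their mRNAs usually end in a conserved stem-loop and not in a poly(A) tail. The stem-loop is bound by SLBP, the 3′ end is cut with the help of the U7 small nuclear ribonucleoprotein, and the mRNAs are degraded when DNA synthesis stops. Transcription depends on NPAT, a substrate of cyclin E and CDK2. Libraries made from total RNA can therefore measure these transcripts, whereas libraries selected for poly(A) largely miss them.

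The cells came from a B cell lymphoma of a C57BL/6 mouse with the transgenes Eµ-Myc, in which an immunoglobulin enhancer drives Myc in B cells, and Eµ-rtTA. The cells of all 4 groups carried both and grew in culture with interleukin-7 after infection with a retrovirus and selection in puromycin. The 4 groups, of 3 libraries each, were TFEB cells treated with 4-hydroxytamoxifen (4-OHT), TFEB cells given vehicle, vector cells treated with 4-OHT and vector cells given vehicle. TFEB cells carried TFEB, a transcription factor of lysosome genes, with Ser-211 changed to Ala and fused to ER-T2, a mutated hormone-binding domain of the human estrogen receptor that 4-OHT engages, and vector cells carried the virus with puromycin resistance alone. Treatment lasted 4 days, and the dose is uncertain because 250 is given in nM in one place and in ng/mL in another. The material is 1 lymphoma, and nothing says that the 3 replicates were separate infections or cultures, so p-values measure the spread between these samples, which may be technical. In bulk RNA, fewer cells in S phase and less histone mRNA per cell cannot be told apart.

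The values are normalized read counts, that is, gene read counts divided by 1 size factor per library, and 13111 genes passed the same minimum and were tested. Libraries held 11849029 to 22109283 reads, of which 72707 to 229619 fell on the 57 histone genes. The Tfeb gene averaged 665 ± 72.6 in the TFEB 4-OHT group and 1676 ± 249 in the TFEB vehicle group (SD, n = 3 each). It averaged 221 ± 23.4 in the vector 4-OHT group and 243 ± 17.7 in the vector vehicle group (SD, n = 3 each). Tfeb was thus higher in TFEB cells than in vector cells and, within TFEB cells, lower in 4-OHT than in vehicle. No measure of the activity of the fusion is given here. Vector 4-OHT library 2 and TFEB vehicle library 3 had been found apart from their groups in an earlier analysis of these data, and counts are also given without them. Genes with reads varied within groups, from 12204 to 19250 in TFEB cells in 4-OHT, from 12089 to 16471 in TFEB cells in vehicle, from 11892 to 19057 in vector cells in 4-OHT and from 11390 to 15342 in vector cells in vehicle. Summed counts of olfactory and vomeronasal receptor genes ran from 99.3 to 5154 over the libraries. They were highest in TFEB 4-OHT library 2 (5154), vector 4-OHT library 2 (4371) and TFEB vehicle library 3 (2758). The source of these reads was not tested. All 10 erythroid markers listed were too low to test, and the 5 hemoglobin genes among them were at 0 in every library. The T cell, myeloid and stromal marker lists summed to at most 1242, 167 and 1033 in any library, against 33007 to 62322 for the B cell marker list.

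The stem-loop was read in the transcript models of GENCODE M21 (GRCm38, the assembly behind mm10), because it is the feature that defines this gene family. The motif searched, on the transcribed strand, was GG, any 2 bases, CTTTT, any base, AG, any 2 bases and CC, and the share of kept members holding it was 64.9% (37 of 57), against 0.329% of 21901 protein-coding genes (72 genes, of which 44 carry a Hist name). In 11 of the 20 members without a match the gene model is shorter than 420 bases, and no match says only that these letters are not in the model. The following windows belong to members on which the results below turn. Capitals mark the 16 bases of the stem-loop and 5 bases are shown on each side.
Hist1h1c: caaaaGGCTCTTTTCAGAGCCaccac
Hist1h1e: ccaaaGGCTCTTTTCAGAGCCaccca
Hist1h2ab: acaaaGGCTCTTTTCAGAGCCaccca
Hist1h2bm: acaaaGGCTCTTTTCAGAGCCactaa
Hist1h3c: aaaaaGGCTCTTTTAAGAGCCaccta
Hist1h4d: ccaaaGGCCCTTTTCAGGGCCactac
Hist1h4j: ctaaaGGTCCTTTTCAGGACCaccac
Hist2h4: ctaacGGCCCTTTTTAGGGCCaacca
Hist4h4: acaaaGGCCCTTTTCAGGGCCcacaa
These windows lie at chr13:23739507-23739532 (plus strand) for Hist1h1c, chr13:23621777-23621802 (minus) for Hist1h1e, chr13:23751567-23751592 (plus) for Hist1h2ab, chr13:21722501-21722526 (plus) for Hist1h2bm and chr13:23745042-23745067 (minus) for Hist1h3c. Those of the H4 genes lie at chr13:23581945-23581970 (plus) for Hist1h4d, chr13:21735432-21735457 (plus) for Hist1h4j, chr3:96262934-96262959 (minus) for Hist2h4 and chr6:136803993-136804018 (minus) for Hist4h4. The search fixed most bases of the motif, so the 37 matches could differ only at its free positions. At those positions they differed by class. All 27 matching H1, H2A, H2B and H3 genes had the same stem, with C in the last loop position in 21, A in 5 and T in 1. The 10 matching H4 genes had other stems, 8 beginning GGCCCT and 2 beginning GGTCCT. For 34 of the 37 genes the RefSeq gene end fell within 2 bases of the end of the window, so the RefSeq gene ends just after the stem-loop. The GENCODE models differ, and 20 of the 37 run more than 100 bases past it.

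Histone mRNA as a whole was lower in TFEB cells in 4-OHT than in the other 3 groups. The 57 genes took 0.606 ± 0.011% of reads in the TFEB 4-OHT group, 0.876 ± 0.054% in the TFEB vehicle group, 1.06 ± 0.097% in the vector 4-OHT group and 1.01 ± 0.084% in the vector vehicle group (SD, n = 3 each). Their summed level was 99397, 93850 and 98415 normalized counts in the TFEB libraries in 4-OHT, against 144138, 140067 and 151814 in the TFEB libraries in vehicle. It was 191476, 158673 and 169471 in the vector libraries in 4-OHT, against 165360, 180695 and 154516 in the vector libraries in vehicle. The highest TFEB library in 4-OHT thus lay below the lowest of the other 9, and the TFEB libraries in vehicle lay below all 6 vector libraries, while the vector groups overlapped. The ratio of mean summed levels, 4-OHT over vehicle, was 0.669 in TFEB cells and 1.04 in vector cells.

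By summed level, all 5 classes were lower to a similar extent, so that the makeup of histone mRNA hardly differed between groups. Gene by gene, the classes differed more. The median log2 change with 4-OHT in TFEB cells ran from -0.65 for H4 to -0.43 for H2A. The ratio of the class sums, 4-OHT over vehicle in TFEB cells, was 0.69 for H1, 0.69 for H2A, 0.65 for H2B, 0.67 for H3 and 0.63 for H4. In vector cells the same ratios were 1.05, 1.05, 1.00, 1.09 and 1.01. H1 made up 24.1% of the summed histone level in TFEB cells in 4-OHT and 23.4% in TFEB cells in vehicle, and H4 made up 21.0% and 22.1%. These sums are descriptions of the chosen genes and carry no test.

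**Figure D1:**
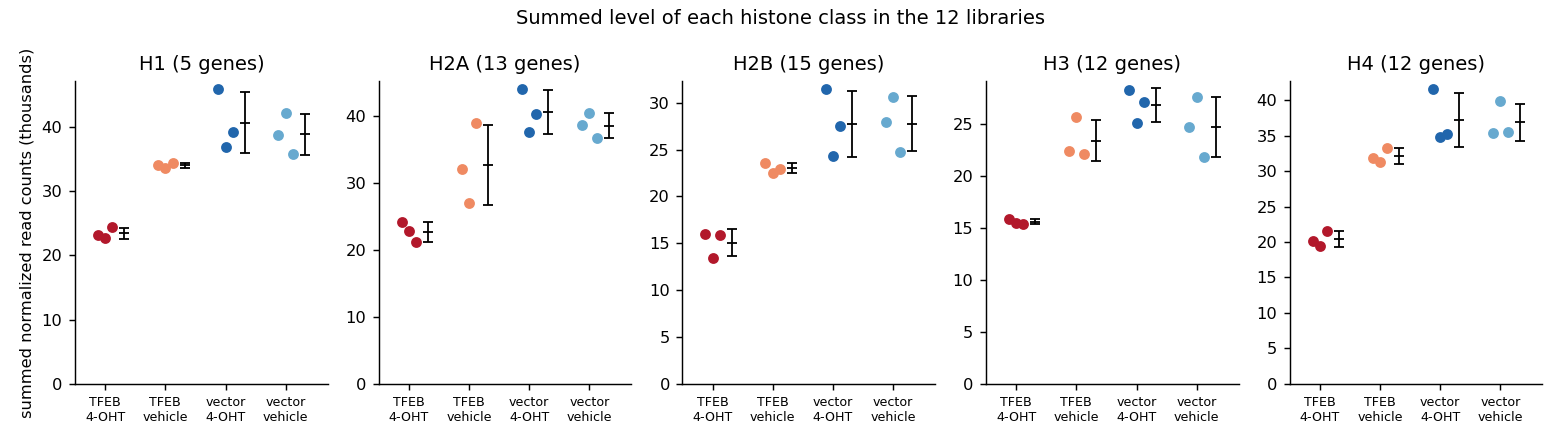
Summed normalized read counts (axis in units of 1000) of the H1, H2A, H2B, H3 and H4 genes in each of the 12 libraries; points are libraries, and the bar beside each group is the mean with its SD over 3 libraries. In each of the 5 classes the TFEB libraries in 4-OHT lie lowest, at 22718 to 24388 for H1 against 33649 to 34452 for TFEB vehicle.

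Setting 4-OHT against vehicle within TFEB cells compares cells that carry the fusion with and without its ligand. Of the 57 genes, 49 fell, 0 rose and 8 did not pass the threshold of 0.05 on the adjusted p (limma on log2(value + 1), Benjamini-Hochberg over 13111 genes). Of all tested genes, 13.9% were called lower and 13.7% higher in this comparison. The median log2 change of the 57 was -0.51, which is 1.42-fold lower, whereas the median over all tested genes was 0.035. The calls covered 5 of 5 H1 genes, 10 of 13 H2A, 13 of 15 H2B, 11 of 12 H3 and 10 of 12 H4 genes. In 44 of the 57 all TFEB libraries in 4-OHT lay below all TFEB libraries in vehicle, against 18.4% of all tested genes. Without the 2 libraries named above, 44 of the 57 fell and 0 rose, against 1738 and 1746 of 11531 tested genes. In a limma fit without a variance trend, 35 of the 57 fell and 0 rose, against 1480 and 1494 of 13111 tested genes.

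**Figure D2:**
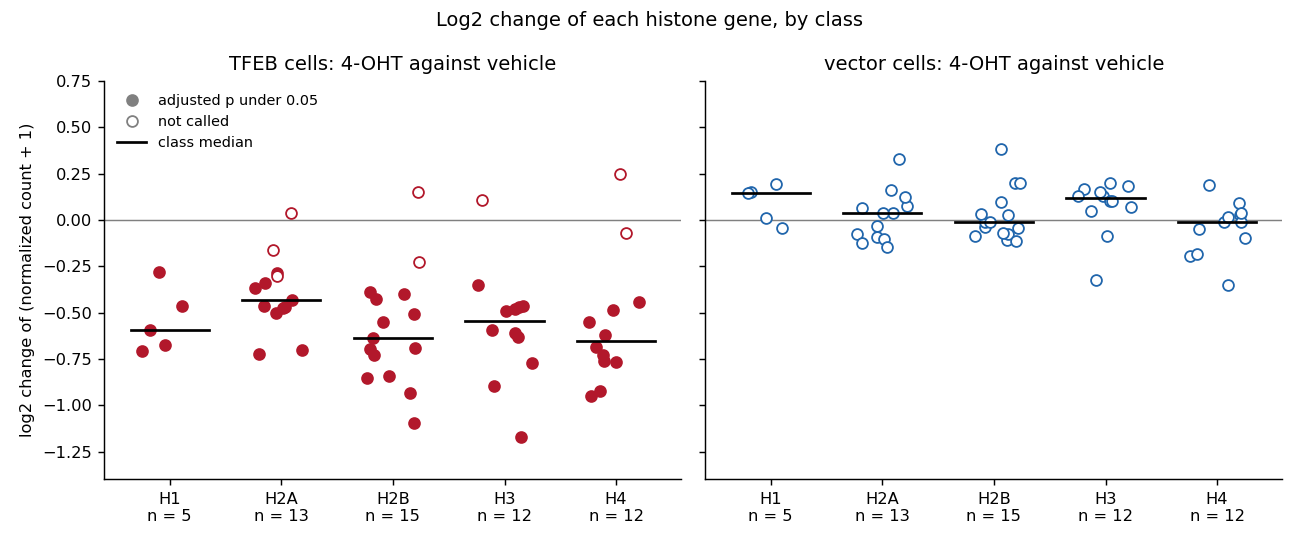
Log2 change of (normalized count + 1), 4-OHT against vehicle, for each of the 57 histone genes by class, in TFEB cells (left) and vector cells (right); filled points passed an adjusted p of 0.05 and bars are class medians. In TFEB cells 49 of 57 points are filled and all of those lie below 0, with class medians from -0.65 (H4) to -0.43 (H2A); in vector cells none is filled.

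The linker histone genes include Hist1h1e (chr13:23621777-23622558), whose level per kilobase of RefSeq gene span was second to that of the H4 gene Hist1h4d, at 13591 normalized counts in TFEB cells in 4-OHT and 20532 in TFEB cells in vehicle. Its level was 10471, 10643 and 10772 in the TFEB libraries in 4-OHT, against 16938, 15628 and 15601 in the TFEB libraries in vehicle. Vector cells had 20338, 17419.9 and 17881 in 4-OHT, against 18447, 20110.1 and 16687 in vehicle. Hist1h1e thus separated all TFEB 4-OHT libraries from the rest, and it fell 1.51-fold in TFEB cells (log2 -0.59 ± 0.08 SE, adjusted p = 1.51e-06, limma). Some of its annotated exon sequence overlaps that of Hist1h2be on the same strand, so the counts of both genes are uncertain there. Hist1h1c, another linker histone gene, had 3000.2, 2758 and 3027 in TFEB cells in 4-OHT, against 4878, 4646 and 4793 in vehicle, and fell 1.63-fold (adjusted p = 1.07e-07, limma). Hist1h1a had 2553, 2259 and 2564 in TFEB cells in 4-OHT, against 3299.8, 4466 and 4082 in vehicle, and fell by 0.67 on the log2 scale (adjusted p = 2.05e-05, limma). Hist1h1d fell least among the H1 genes, 1.21-fold (log2 -0.28 ± 0.10 SE, adjusted p = 0.0307, limma), although its groups did not overlap. That call held in 18 of the 26 other settings tried. Among single libraries, it was lost without TFEB 4-OHT library 1 or 2 or TFEB vehicle library 3, with adjusted p from 0.103 to 0.132 in those limma fits.

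Among the H2A genes, whose proteins pair with H2B in the nucleosome, Hist1h2ak (chr13:21753377-21753912) had 12067 normalized counts per kilobase of span in TFEB cells in 4-OHT and 20081 in TFEB cells in vehicle. Its level was 6738, 6812 and 5855 in the TFEB libraries in 4-OHT, against 9909.6, 8330.1 and 14050.2 in vehicle. It fell 1.63-fold (log2 -0.70 ± 0.12 SE, adjusted p = 1.89e-05, limma), although TFEB vehicle library 3 stood well above the other 2 in its group. Summed over the 13 H2A genes, that library held 38942, against 32117 and 27018 in TFEB vehicle libraries 1 and 2. Hist1h2ab had 2076, 2119 and 1739 in TFEB cells in 4-OHT, against 3105, 2975 and 3736 in vehicle, and fell 1.65-fold (adjusted p = 3.34e-07, limma). For Hist2h2ac the groups overlapped, with 3383, 2833 and 2658 in 4-OHT against 3302, 3254 and 4309 in vehicle. It fell 1.22-fold (adjusted p = 0.043, limma), a call lost without TFEB 4-OHT library 2 or 3 or TFEB vehicle library 3 (adjusted p 0.123 to 0.317, limma). The call of Hist2h2ac held in 18 of the 26 other settings tried. Hist1h2af fell 1.39-fold, averaging 2476 ± 81.4 in 4-OHT and 3465 ± 521 in vehicle (adjusted p = 0.000261, limma), but 94.0% of its sequence is shared with other genes. Hist1h2ad, Hist1h2ag and Hist2h2ab did not pass, and Hist2h2ab averaged 145 ± 10.1 in TFEB cells in 4-OHT and 145 ± 41.8 in vehicle (SD, n = 3 each).

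The H2B genes held several of the larger falls. Hist1h2bm (chr13:21722044-21722526) had 1244, 739.6 and 1219 in the TFEB libraries in 4-OHT, against 2067, 2036 and 1577 in vehicle. It had 2764, 1975 and 2404 in vector cells in 4-OHT, against 2265, 2659 and 2046 in vector cells in vehicle. It fell 1.81-fold in TFEB cells (log2 -0.85 ± 0.15 SE, adjusted p = 2.96e-05, limma), with no overlap between the 2 TFEB groups. Hist1h2be fell 1.91-fold, to 1076, 919 and 1090.4 in 4-OHT, against 1860.2, 1869.6 and 2163 in vehicle (adjusted p = 9.71e-08, limma). Hist2h2bb had 1830.5, 1431 and 1884 in 4-OHT, against 2629, 3239 and 2479.9 in vehicle, and fell 1.62-fold (adjusted p = 6.67e-06, limma). All of the Hist2h2bb sequence is also annotated in an overlapping gene model, so its counts are uncertain. Hist1h2bg had 1989.7, 2078 and 2066 in 4-OHT, against 3143, 2904 and 2957 in vehicle, and fell 1.47-fold (adjusted p = 0.000101, limma). Hist1h2bb and Hist1h2bc fell 1.55-fold and 1.34-fold, averaging 1671 ± 313 and 2022 ± 71.3 in 4-OHT against 2569.9 ± 230.0 and 2732 ± 365 in vehicle (adjusted p = 0.000243 and 0.00132, limma). The H2B genes Hist1h2bp and Hist2h2be had few counts, averaging 88.4 ± 28.9 and 167 ± 45.0 in 4-OHT against 192 ± 69.4 and 295 ± 40.9 in vehicle. Both fell (adjusted p = 0.00744 and 0.00721, limma), but both calls were lost without TFEB 4-OHT library 2 (adjusted p = 0.0654 and 0.0665, limma), and that of Hist1h2bp also without TFEB vehicle library 2 (adjusted p = 0.0573, limma). Of the 26 other settings tried, 22 kept the call of Hist1h2bp and 24 that of Hist2h2be.

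H3 genes encode the core histone whose tail carries many of the known methylation and acetylation marks. Hist1h3c (chr13:23745042-23745521) had 1941, 1811 and 1845 in the TFEB libraries in 4-OHT, against 3211, 3769 and 3453 in vehicle. It had 3758, 3414 and 3904 in vector cells in 4-OHT, against 3369, 3799 and 3000.3 in vector cells in vehicle. It fell 1.86-fold in TFEB cells (log2 -0.90 ± 0.09 SE, adjusted p = 2.88e-09, limma), while the other 9 libraries spanned 3000.3 to 3904. Hist1h3e fell 1.38-fold, to 3101, 2851 and 3127 in 4-OHT, against 4418, 4587 and 3590.0 in vehicle (adjusted p = 0.000242, limma). Hist1h3h fell 1.71-fold, with 1208, 1248 and 1220.4 in 4-OHT against 1739, 2715 and 1948 in vehicle (adjusted p = 3.48e-06, limma), but 93.9% of its sequence is shared, mostly with Hist1h3i, so the pair is uncertain. Hist1h3b fell 1.53-fold and Hist1h3f 1.28-fold, averaging 1292 ± 106 and 1968 ± 140.2 in 4-OHT against 1987 ± 316 and 2511 ± 148 in vehicle (adjusted p = 0.000148 and 0.00964, limma). The call of Hist1h3f was lost without TFEB 4-OHT library 3 and in the fit without a variance trend. The largest fitted fall of the family, 2.25-fold, belonged to Hist2h3c1 (log2 -1.17 ± 0.30 SE, adjusted p = 0.00331, limma), at only 123, 116 and 89.3 in 4-OHT against 217, 309 and 219.8 in vehicle. Its whole sequence is shared with an overlapping gene model, so this value is uncertain, and its near copy Hist2h3c2 averaged 73.4 ± 6.67 in 4-OHT and 74.0 ± 39.8 in vehicle and was not called.

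Mouse H4 genes are known to encode the same core protein from many loci. Hist1h4d (chr13:23581568-23581969) had the highest level per kilobase of gene span among the 53 members with a RefSeq span under 1000 bases, 16524 normalized counts per kilobase in TFEB cells in 4-OHT and 27949 in TFEB cells in vehicle. Its libraries held 6429, 6277 and 7222 in TFEB cells in 4-OHT, against 11149, 10747 and 11811 in vehicle. It fell 1.69-fold (log2 -0.76 ± 0.09 SE, adjusted p = 2.01e-08, limma). Hist2h4 (chr3:96262934-96263317) had 1665, 1675 and 1638 in TFEB cells in 4-OHT, against 3396, 3363 and 2884 in vehicle. This fall of 1.93-fold had the lowest adjusted p of the family (8.94e-10, limma), and the TFEB 4-OHT libraries lay close together, far below all others. Hist1h4h and Hist1h4b fell 1.46-fold and 1.36-fold, averaging 2988 ± 292 and 3144 ± 116 in 4-OHT against 4374 ± 365 and 4295 ± 527 in vehicle (adjusted p = 5.88e-05 and 0.000322, limma). Hist1h4j fell 1.90-fold, to 303, 369 and 341 in 4-OHT, against 667, 759.8 and 517 in vehicle (adjusted p = 6.49e-06, limma). Hist1h4n fell 1.70-fold, with 438, 572 and 563 in 4-OHT against 821, 889 and 958 in vehicle (adjusted p = 3.54e-05, limma).

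Hist4h4, which lies alone on chromosome 6 (chr6:136803993-136804431), was 1 of the 2 H4 genes not called with 4-OHT in TFEB cells. It had 399, 401 and 445 in TFEB cells in 4-OHT, against 386, 469.5 and 234 in TFEB cells in vehicle, a log2 change of 0.25 ± 0.18 (SE) that missed the threshold (limma, adjusted p = 0.364). It had 751, 545 and 631 in vector cells in 4-OHT, against 607, 677 and 611 in vector cells in vehicle. Both TFEB groups therefore lay below both vector groups, with no overlap, and the TFEB groups overlapped each other. Hist1h4i, the other, had 181, 275 and 269 in TFEB cells in 4-OHT, against 245, 260.4 and 243 in TFEB cells in vehicle. It had 281, 318 and 276 in vector cells in 4-OHT, against 379, 349 and 386 in vector cells in vehicle. Its TFEB groups likewise overlapped each other and lay below all vector libraries, though by little. The 8 genes not called in TFEB cells were Hist1h2ad, Hist1h2ag, Hist1h2bf, Hist1h4i, Hist2h2ab, Hist2h3c2, Hist3h2bb-ps and Hist4h4, with log2 changes from -0.30 to 0.25.

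**Figure D3:**
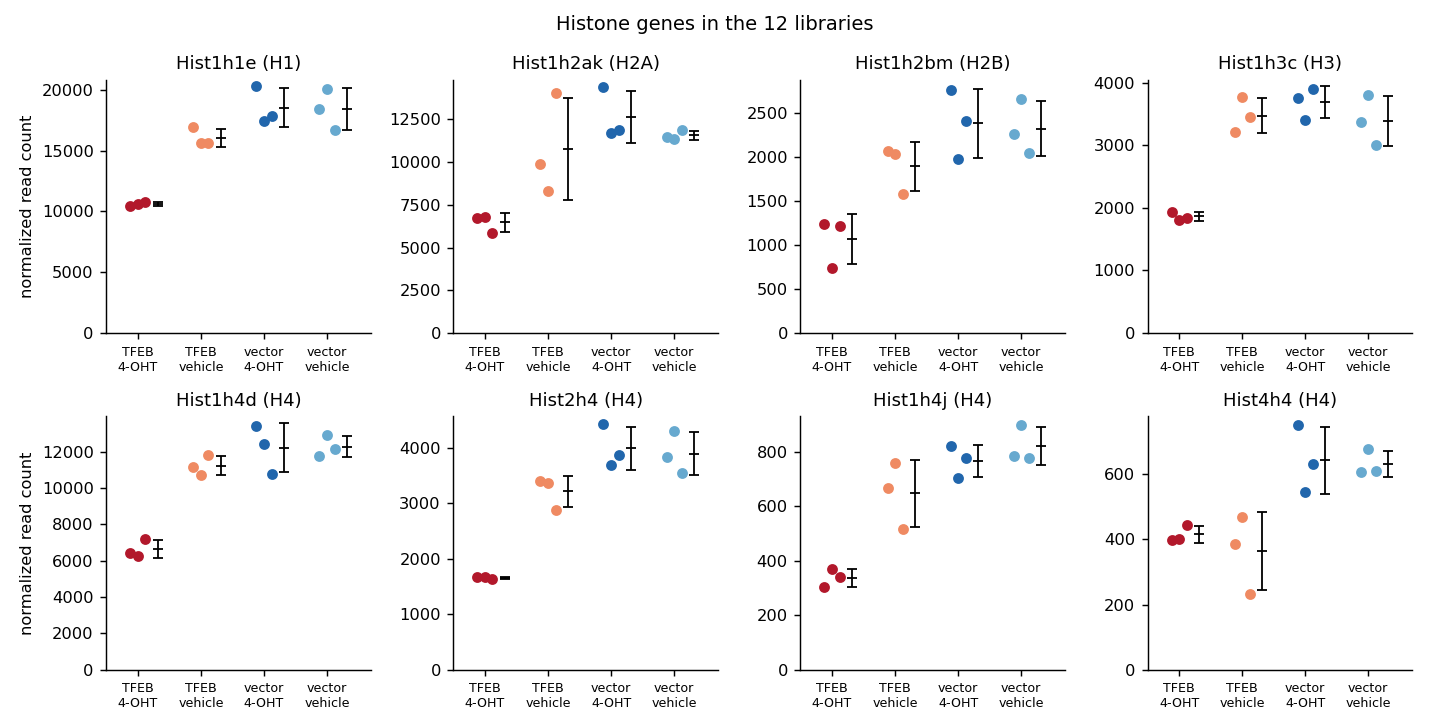
Normalized read counts of 8 histone genes in each library, by group; points are libraries and the bar beside each group is the mean with its SD over 3 libraries. For 7 of the genes the TFEB libraries in 4-OHT lie below all others, whereas Hist4h4 is low in both TFEB groups (234 to 469.5) and higher in both vector groups (545 to 751).

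The same treatment was compared with vehicle in vector cells, which lack the fusion. Of the 57 genes, 0 rose and 0 fell by limma, with 2 at an unadjusted p under 0.05 and a lowest adjusted p of 0.492. edgeR and DESeq2 on the whole reads also called 0, with 2 and 4 at an unadjusted p under 0.05. In this comparison 0.0153% of all tested genes were called in either direction. The log2 changes of the 57 ran from -0.35 to 0.38, with a median of 0.025, beside 0.027 over all tested genes. The vector groups did not overlap for 2 genes that were lower and 1 that was higher in 4-OHT, against backgrounds of 5.34% and 5.43%. The higher one, Hist2h2ac, had 4945, 3948 and 4995 in 4-OHT, against 3809, 3780.4 and 3432 in vehicle (log2 0.33 ± 0.11 SE, adjusted p = 0.492, limma). Without the 2 libraries that stood apart, it was the 1 histone gene called, and 51 of 11531 tested genes were called in either direction. A miss of the threshold does not show that the ligand had no effect, and for Hist1h1e the change was 0.01 ± 0.08 SE on the log2 scale.

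The difference between these 2 effects was tested as an interaction. It passed for 36 of the 57 genes, all with a more negative change in TFEB cells than in vector cells, and 0 passed in the other direction (limma). The background was 8.01% of tested genes called lower and 7.75% called higher, and the median interaction was -0.61 on the log2 scale over the 57 and -0.031 over all tested genes. By class, 5 of 5 H1, 4 of 13 H2A, 8 of 15 H2B, 9 of 12 H3 and 10 of 12 H4 genes passed. The most negative among those that passed was Hist1h3c, whose log2 change was -0.90 in TFEB cells and 0.13 in vector cells, an interaction of -1.02 ± 0.13 SE (adjusted p = 4.17e-07, limma). Hist2h4 followed, with -0.95 in TFEB cells, 0.04 in vector cells and an interaction of -0.99 ± 0.13 SE (adjusted p = 8.74e-07, limma). The abundant H4 gene Hist1h4d had an interaction of -0.75 ± 0.12 SE (adjusted p = 2.42e-05, limma) and the linker gene Hist1h1e one of -0.61 ± 0.12 SE (adjusted p = 0.000375, limma). Without a variance trend the count of histone genes was 17, and 681 of 13111 tested genes were called lower. Without the 2 libraries that stood apart it was 40, and 991 of 11531 tested genes were called lower.

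TFEB cells were also set against vector cells in vehicle, where the fusion is present without its ligand. Of the 57 genes, 9 were lower in TFEB cells, 0 were higher and 48 did not pass (limma), against 2.49% of tested genes called lower and 2.89% called higher. The median log2 difference was -0.27 for the 57 and 0.050 for all tested genes. All TFEB libraries lay below all vector libraries for 18 of the 57, against 9.66% of tested genes. The group mean was lower in TFEB cells in vehicle than in vector cells in vehicle for 51 of the 57. That share was not computed over all tested genes. Among the 9 called, Hist4h4 was lower by the most, 1.81-fold (log2 -0.85 ± 0.18 SE, adjusted p = 0.00332, limma), with 386, 469.5 and 234 in TFEB cells against 607, 677 and 611 in vector cells. Hist1h2bf, an H2B gene, had 949, 792 and 946 in TFEB cells, against 1466, 1476 and 1167 in vector cells, and was 1.53-fold lower (adjusted p = 0.00164, limma). Hist1h2ad, Hist1h2bg and Hist1h2ae were 1.45-fold, 1.39-fold and 1.38-fold lower. None of the 9 calls held under every alternative tried, and without TFEB vehicle library 2 or vector vehicle library 2 the count was 5 and 3. Without a variance trend it was 0 (15 at an unadjusted p under 0.05), and edgeR and DESeq2 on the whole reads called 9 and 13. Over all tested genes, these fits in turn called 229, 187, 119, 330 and 527 lower, against 326 in the fit reported.

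In 4-OHT the difference between the lines was wider. Of the 57 genes, 52 were lower in TFEB cells, 0 were higher and 5 did not pass (limma), against 13.5% of tested genes called lower and 13.6% called higher. The median log2 difference was -0.83 for the 57, which is 1.78-fold lower, and 0.052 for all tested genes. All TFEB libraries lay below all vector libraries for 52 of the 57, against 18.9% of tested genes. Hist2h4 was 2.40-fold lower, with 1665, 1675 and 1638 in TFEB cells against 4427, 3684 and 3871 in vector cells (adjusted p = 1.39e-12, limma). Hist1h2bp, at few counts, was 2.52-fold lower (adjusted p = 0.00125, limma). Hist1h4j and Hist1h2bm were each 2.27-fold lower, and Hist1h1a was 2.13-fold lower, with 2553, 2259 and 2564 in TFEB cells against 6381, 4252 and 5271 in vector cells. The 5 genes not called were Hist1h4i, Hist2h2ab, Hist2h3c1, Hist2h3c2 and Hist3h2bb-ps. The 5 comparisons share libraries, so their counts are not independent of each other.

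**Figure D4:**
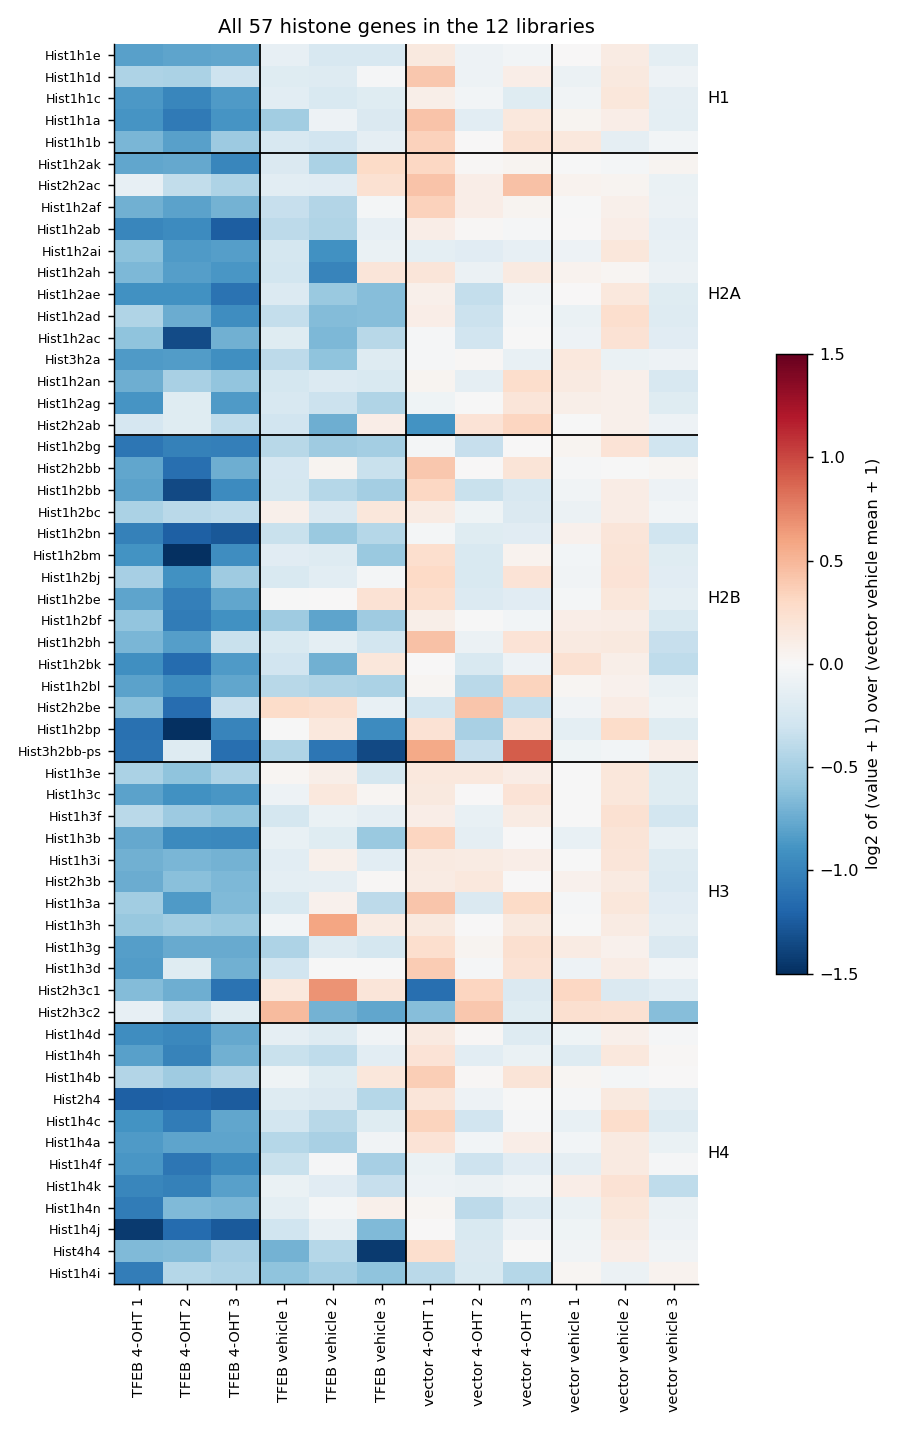
Log2 of (value + 1) over (vector vehicle mean + 1) for each of the 57 histone genes (rows, by class and falling mean) in the 12 libraries (columns); blue is lower and red is higher, and the colour scale ends at -1.5 and 1.5. The TFEB libraries in 4-OHT are blue for nearly all genes. For 41 of the 57 all of them lie below the other 9 libraries, against 10.8% of tested genes.

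Taken gene by gene, the order of the 4 groups was much the same across the family. For 55 of the 57 the lowest group mean was in TFEB cells in 4-OHT, and for 48 the order ran from TFEB cells in 4-OHT through TFEB cells in vehicle to both vector groups. For 41 genes every TFEB library in 4-OHT lay below the other 9 libraries, against 10.8% of tested genes. The vector groups had no such order, since 34 genes had the higher mean in 4-OHT and 23 in vehicle. For these orders of group means the share over all tested genes was not computed. The Hist1 cluster (chr13:21715711-23764412) had 42 of 46 genes lower with 4-OHT in TFEB cells and the Hist2 cluster (chr3:96219885-96270192) 6 of 8, with median log2 changes of -0.53 and -0.65.

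Sequence features that the choice of genes did not use were set beside the change with 4-OHT in TFEB cells. The 37 genes with the stem-loop motif in the model had a median log2 change of -0.55 in TFEB cells, with 31 lower, and the 20 without it had -0.48, with 18 lower. The 29 genes with C in the last loop position, as in Hist1h1e and Hist1h4d, had a median of -0.55 and the 5 with A, as in Hist1h3c, had -0.63. Models running more than 100 bases past the stem-loop, as annotated for 20 genes, had -0.49, against -0.61 for the 17 that end sooner. Of those 20, 8 hold AATAAA, the signal of polyadenylation, within their last 60 bases and had a median of -0.81, with 7 lower. These are descriptions of few genes and were not tested.

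Many histone genes are close copies, which bears on how far a value belongs to 1 gene. Of the 50-base stretches in a member's transcript models, a median of 49.5% also occurred in another gene (range 0 to 100%, 57 genes), with class medians of 2.25% for H1, 64.8% for H2A, 44.1% for H2B, 62.0% for H3 and 34.2% for H4. Either strand counted, and the other gene could be a model that overlaps the member at its own locus. These shares are therefore not of histone copies alone. The 27 members with at least 50% shared had a median log2 change of -0.47 and the 30 with less had -0.55, and 22 of the 27 and 27 of the 30 were called lower with 4-OHT in TFEB cells. Exons of 19 members overlap another gene model, and none of the sources used here gives the strand setting of the counting, so reads from an overlapping antisense model cannot be told apart. The 11 symbols below the minimum had a median of 89.8% shared, and 6 were at 0 in every library. They include Hist1h1t, Hist1h2aa and Hist1h2ba, known as histone genes of the testis. They also include copies such as Hist2h2aa1 and Hist2h2aa2 with 100% shared sequence, counting overlapping gene models, for which a 0 is not evidence of no transcript. Just inside the minimum were Hist3h2bb-ps and Hist2h3c2, for which the value that decided it, that of the library ranked 3 from the top, was 81.0 and 102, and just outside were Hist1h1t and Hist1h4m, with 3.43 and 2.95.

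Promoters are shown because the members moved together. The 250 bases before the RefSeq start (GRCm38.p6) were available for 51 of the 57. CCAAT, the box bound by NF-Y, TATAAA, the TATA box, and ATTTGCAT, the octamer bound by OCT1 (Pou2f1), were searched on both strands and are in capitals in either orientation.
Hist1h2ab: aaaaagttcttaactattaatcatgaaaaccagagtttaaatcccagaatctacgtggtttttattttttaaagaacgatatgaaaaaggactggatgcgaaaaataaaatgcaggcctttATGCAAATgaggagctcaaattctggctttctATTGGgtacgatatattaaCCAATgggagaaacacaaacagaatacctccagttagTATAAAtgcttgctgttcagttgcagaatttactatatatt
Hist1h1e: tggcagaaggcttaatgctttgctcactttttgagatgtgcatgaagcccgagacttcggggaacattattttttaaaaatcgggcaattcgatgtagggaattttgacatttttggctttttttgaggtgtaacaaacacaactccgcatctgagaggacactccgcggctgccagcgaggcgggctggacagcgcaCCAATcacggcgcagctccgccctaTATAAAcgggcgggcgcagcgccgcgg
Hist1h4d: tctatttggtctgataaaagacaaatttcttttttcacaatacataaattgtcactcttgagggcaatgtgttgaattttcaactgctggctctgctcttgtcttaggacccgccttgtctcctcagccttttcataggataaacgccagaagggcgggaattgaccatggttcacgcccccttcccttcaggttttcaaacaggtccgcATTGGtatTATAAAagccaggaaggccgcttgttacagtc
These stretches are chr13:23750838-23751087 (plus strand) for Hist1h2ab, chr13:23622559-23622808 (minus) for Hist1h1e and chr13:23581318-23581567 (plus) for Hist1h4d. CCAAT was present in 80.4% of the 51 histone promoters and 37.5% of the promoters of 27025 genes, and TATAAA in 49.0% and 14.3%. The TATAAA count takes either strand. In Hist1h2ae, Hist1h2bf, Hist1h2bk, Hist1h2bn and Hist1h2bp the motif occurs only in reverse to the gene. By class, CCAAT was in 5 of 5 H1, 13 of 13 H2A, 12 of 12 H2B, 8 of 10 H3 and 3 of 11 H4 promoters. ATTTGCAT was in 6 of 13 H2A and 6 of 12 H2B promoters and in none of the other 26, against 1.81% of all genes. These counts are not all of separate sites, since the windows of 7 H2A and H2B pairs overlap by 163 to 248 bases on opposite strands. All 7 pairs share a CCAAT site, and 2 pairs, Hist1h2ae with Hist1h2bg and Hist1h2ah with Hist1h2bk, share an ATTTGCAT site that is counted for both genes. A TATAAA site is likewise shared by Hist1h2ae with Hist1h2bg and by Hist1h2an with Hist1h2bp. AAACACA, known as an element of H1 promoters, was in 4 of 5 H1 promoters and 2 others, against 7.20% of all genes. CACGTG, the core of the element that TFEB binds in lysosome genes, was in 0 of the 51 and in 6.86% of all genes, which says only that these letters are not in these windows.

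For the lists that follow, the shares of all tested genes called with 4-OHT in TFEB cells were 13.7% higher and 13.9% lower. Of 34 listed genes of histone mRNA processing and transcription, 7 rose and 2 fell with 4-OHT in TFEB cells (limma), with a median log2 change of 0.042, and 5 to 9 rose and 1 to 3 fell over the settings tried. The share called was thus near that of all genes. Slbp, the stem-loop binding protein, had 1193, 856 and 877 in TFEB cells in 4-OHT, against 734, 827 and 762 in vehicle (log2 0.32 ± 0.12 SE, adjusted p = 0.0515, limma). Npat, the transcriptional coactivator of the clusters, averaged 1804 ± 141 in 4-OHT and 1950.0 ± 158 in vehicle (log2 -0.11, adjusted p = 0.437, limma). Neither passed the threshold. The largest rises belonged to Zfp473, whose human counterpart is a zinc finger protein of the U7 particle, and Mif4gd, known as a partner of SLBP in translation. Zfp473 had 1117, 1057 and 854 in TFEB cells in 4-OHT, against 242, 185 and 319 in vehicle, a rise of 4.12-fold (log2 2.04, adjusted p = 5.43e-08, limma). Mif4gd had 693, 541 and 629.6 in 4-OHT, against 142, 119.5 and 211 in vehicle, a rise of 4.01-fold (log2 2.00, adjusted p = 9e-09, limma). Both differed from vector cells in the interaction (adjusted p = 2.14e-05 and 1.74e-05, limma), where vector cells averaged 168 ± 65.0 in 4-OHT and 175 ± 42.0 in vehicle for Zfp473 and 236 ± 45.7 and 223 ± 8.53 for Mif4gd. Zcchc6, a uridyl transferase, rose 1.45-fold, and Cpsf2, a cleavage factor subunit, 1.28-fold. The 2 that fell were Snrpd3, a spliceosomal Sm protein that the U7 particle also holds, and Zcchc11, another uridyl transferase.

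The replication-independent histone variants, whose genes make ordinary polyadenylated mRNA, moved less evenly. Of 10 tested, 5 fell and 1 rose with 4-OHT in TFEB cells (limma), against 13.9% and 13.7% of all tested genes, with a median log2 change of -0.18. Over the settings tried, 2 to 5 fell. H2afx, which encodes the variant phosphorylated at DNA breaks and whose mRNA can also end in a stem-loop, averaged 2601 ± 47.9 in 4-OHT and 4080.5 ± 100.1 in vehicle (SD, n = 3 each), 1.57-fold lower (adjusted p = 2.02e-07, limma). H2afz, Cenpa (the centromere variant), H2afv and H1fx also fell, by 1.26-fold, 1.38-fold, 1.24-fold and 1.79-fold. H2afj rose 1.29-fold, averaging 2167 ± 127 in 4-OHT and 1684 ± 68.4 in vehicle. H3f3a, H3f3b and H2afy did not pass, and H3f3b averaged 11340 ± 314 in 4-OHT and 11515 ± 396 in vehicle.

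Genes of DNA replication and histone chaperones fell in part. Of 46 DNA replication genes, 18 fell and 1 rose with 4-OHT in TFEB cells, with a median log2 change of -0.21, and the interaction passed for 18, all more negative in TFEB cells (limma). Of all tested genes, 13.9% fell, 13.7% rose and 8.01% had such an interaction. Pole2, a subunit of DNA polymerase epsilon, averaged 3761 ± 316 in 4-OHT and 8024 ± 578 in vehicle, and Gins2, of the replicative helicase, 166 ± 30.7 and 418 ± 122. Tk1, thymidine kinase, averaged 235 ± 16.8 in 4-OHT and 463 ± 77.0 in vehicle, and Tyms, thymidylate synthase, was the gene that rose. Pcna, the sliding clamp, and Mcm2, a helicase subunit, did not pass the test (adjusted p = 0.0563 and 0.895, limma). Of 29 histone chaperone genes, 8 fell and 2 rose, against 13.9% and 13.7% of all tested genes, and 5 to 9 fell over the settings tried. Those that fell include Npm1 (1.51-fold lower), Dek (1.43-fold lower) and Chaf1b, a subunit of the chromatin assembly factor that follows the replication fork (1.33-fold lower). In vector cells 0 genes of the lists given here rose or fell with 4-OHT by limma.

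**Figure D5:**
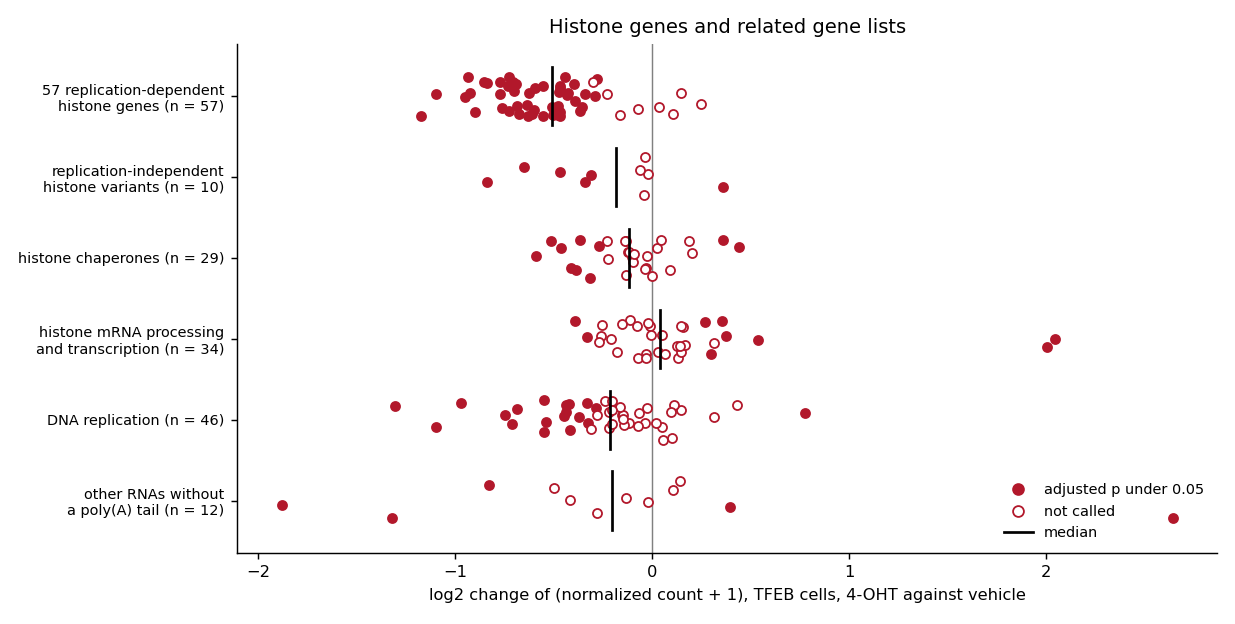
Log2 change of (normalized count + 1), 4-OHT against vehicle in TFEB cells, for the 57 histone genes and 5 related lists; filled points passed an adjusted p of 0.05 and black bars are list medians. The histone genes cluster below 0 (median -0.51), processing factors centre near 0 (median 0.042) with Zfp473 and Mif4gd at about 2, and DNA replication genes have a median of -0.21.

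Other measures moved in the same comparison. Of 12 other RNAs without a usual poly(A) tail, 2 rose and 3 fell with 4-OHT in TFEB cells, against 13.7% and 13.9% of all tested genes, with a median log2 change of -0.20. Over the settings tried, 1 to 2 rose and 2 to 4 fell. Neat1, a nuclear RNA of paraspeckles, averaged 12494 ± 1405 in 4-OHT and 1995 ± 188 in vehicle, Rnu11, a minor spliceosomal RNA, 438 ± 60.6 and 1122 ± 343, and Rmrp, the RNA of RNase MRP, 37125 ± 3578 and 34356 ± 1048. Rn45s, the precursor of ribosomal RNA, took 4.37 ± 0.21% of reads in TFEB cells in 4-OHT and 5.67 ± 0.95% in TFEB cells in vehicle. The B cell markers fell with 4-OHT in TFEB cells in 7 of 9 tested and rose in 2 (limma), and the summed level of the 10 listed was 33007 to 34974 in 4-OHT and 53173 to 56824 in vehicle. It was 54593 to 62322 in vector cells in 4-OHT and 54546 to 57334 in vector cells in vehicle. The T cell marker list summed to 871 to 1148 in TFEB cells in 4-OHT and 980 to 1242 in TFEB cells in vehicle, against 534 to 629 in vector cells in 4-OHT and 563 to 665 in vector cells in vehicle. The myeloid marker list was low throughout but had means of 96.6 in TFEB cells in 4-OHT and 51.6 in TFEB cells in vehicle, against 25.6 in vector cells in 4-OHT and 21.4 in vector cells in vehicle. Its 3 tested genes had a median log2 change of 2.04 with 4-OHT in TFEB cells, and none was called (limma). The part of these measures in the fall of histone mRNA was not tested.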

How the data were processed

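RNA of 12 libraries was measured. Per the labels' protocols, total RNA was made into libraries with a NuGEN Ovation kit for mouse, and the submitters' processing notes name STAR 2.5.3, HTSeq 0.6.1, DESeq2 1.6.3 and mm10. The authors deposited normalized read counts per gene, a signal that is the read count divided by a size factor. Every value was a whole multiple of 1 step per library (100% within 0.001), which gave back the reads. Values were tested as log2(value + 1) with limma 3.58.1 (R 4.3.3) with a variance trend, over 12 libraries in 4 groups (8 residual degrees of freedom), on the 13111 genes with at least 10 in at least 3 libraries, two-sided, with Benjamini-Hochberg adjustment over all of them. A fold change is on the log2(value + 1) scale and understates that of low genes. 3 reads correspond to 2.21 to 4.15 normalized counts. edgeR 4.0.16 and DESeq2 1.42.0 (default dispersion settings) on the recovered reads, and 24 other settings, were alternatives. The fit was also run on simulated data with the same dispersion for every gene and no differences in library quality, unlike these libraries. It called 56 of 100 genes changed by 0.5 on the log2 scale and 93 of 100 changed by 1. Of 11289 unchanged genes it called 9. RefSeq (GRCm38.p6) gave gene spans and promoters and GENCODE M21 the transcripts, and all 57 genes matched by symbol. The members and lists were chosen with earlier results of these data known. Genes named were the 4 of each class with the highest mean, the 10 or 5 with the largest called change per comparison, those nearest the minimum, Slbp, Npat, the variants, and up to 4 called members per list with the largest change and a mean of at least 50. Hist genes not called, Cpsf2, Zcchc11, Chaf1b, Pcna, Mcm2 and Rmrp were named after their values were seen. How reads mapping to several genes were counted is not stated in the sources used.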

Additional observations from a re-analysis of the deposited data

Results flagged for a closer look

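The change with 4-OHT differed between TFEB cells and vector cells by the interaction test (limma, adjusted p under 0.05) for 36 of the 57 histone genes, and this difference is what marked them for a closer look. Among those named, the log2 difference between the 2 changes, TFEB minus vector, was -1.02 for Hist1h3c, -0.99 for Hist2h4, -0.90 for Hist2h2bb and -0.90 for Hist1h2be. It was -0.88 for Hist1h2bm, -0.88 for Hist1h3h, -0.83 for Hist1h4j, -0.83 for Hist1h2ak, -0.82 for Hist1h1a and -0.76 for Hist1h2ab. Groups held 3 libraries each, so no sample was tested as standing far from its group.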

How the results depend on the processing

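No count of histone genes changed direction in the other settings run, of which there were 26 for each comparison of 2 groups. The interaction was not run with only the groups compared, since it uses all 4 groups. Without a variance trend, 35 of the 57 genes fell with 4-OHT in TFEB cells, beside 1480 of 13111 tested genes. In that fit 17 genes passed the interaction and 0 passed between TFEB and vector cells in vehicle (15 at an unadjusted p under 0.05, limma). That last count was 19 with array weights and 2 with only the groups compared in the fit. Of the 13111 tested genes, 326 were lower in TFEB cells in vehicle in the fit reported above. That number was 119 without a variance trend, 486 with array weights and 148 with only the groups compared. For the interaction, 1050 tested genes were called lower in the fit reported above and 681 without a variance trend. Without vector 4-OHT library 2 and TFEB vehicle library 3, 1 gene, Hist2h2ac, was called higher with 4-OHT in vector cells, beside 11 of 11531 tested genes. Leaving out 1 library at a time gave 41 to 49 genes for 4-OHT in TFEB cells, 0 to 0 for 4-OHT in vector cells, 29 to 40 for the interaction, 3 to 12 for TFEB against vector cells in vehicle and 51 to 53 in 4-OHT. Over all tested genes, these fits called 1567 to 1875 lower for 4-OHT in TFEB cells and 906 to 1085 for the interaction. For TFEB against vector cells they called 185 to 358 lower in vehicle and 1490 to 1864 in 4-OHT. Of the calls, 34 of 49, 17 of 36, 0 of 9 and 49 of 52 held in every setting. The labels do not say whether replicate numbers pair the libraries. Correlations of deviations ran from -0.543 to 0.671 over 18 same-numbered pairs (median -0.052). Over 36 pairs with other numbers they ran from -0.595 to 0.524 (median 0.050). A replicate block gave 49, 0, 36, 10 and 51 genes. For Hist1h3f, the call for 4-OHT in TFEB cells was lost without TFEB 4-OHT library 3 (adjusted p = 0.0557, limma) and without a variance trend (adjusted p = 0.0916, limma). A setting chosen after seeing the data left out TFEB 4-OHT library 2, TFEB vehicle library 1 and vector 4-OHT library 2. Each had the most genes with reads in its group, and the vector vehicle group was left whole. The counts were then 41, 0, 33, 8 and 52, against 1438, 34, 779, 325 and 1362 of 11191 tested genes called lower. The cause of these shifts was not tested. Closely related copies and 3 libraries a group limit what can be said of 1 gene.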
